A study of Homo sapiens with 35 samples.

Results

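Contact of the olfactory receptor gene clusters with the nuclear lamina was measured by DamID of lamin B1 in individually sorted KBM7 cells, a line from a human chronic myeloid leukaemia, of clone 5-5. The clusters were taken as 13 regions of hg19 on 7 chromosomes, fixed by their positions and covering 107 of the 30376 bins of 100 kb in the table. All 107 bins had values, as had 26584 bins of the table. In this method the bacterial adenine methylase Dam is fused to lamin B1, a protein of the filament mesh that lines the inner nuclear membrane, and DNA close to the lamina is methylated at the sequence GATC. All cells formed 1 group: cells of clone 5-5, labelled diploid (2N), which carried the Dam and lamin B1 fusion and the Fucci cell-cycle markers, were given 0.5 nM Shield1 for 15 h to induce methylation, and the 2% smallest cells positive for both markers were sorted singly. Of 35 samples in the labels, 32 matched a column of the table and 3 were not analysed here. No cells with unfused Dam, no second condition and no second clone were used here. The cells come from 1 clone and the labels name no separate cultures, so every p-value below covers only the spread between these cells.

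Olfactory receptors are G protein-coupled receptors that detect odorants, and they form the largest gene family of the human genome. Their genes lie in tandem clusters on many chromosomes, among many pseudogenes, and a mature olfactory neuron expresses a single allele of a single receptor gene. In other cell types, blood cells included, most of these genes are silent. Regions at the lamina, called lamina-associated domains, are in general poor in genes, rich in A and T and low in transcription, and in single cells a domain can lie at the lamina in some cells and inside the nucleus in others.

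In RefSeq order (GRCh38.p14), matched to the clusters by gene order and neighbours and not by coordinates, the runs of receptor genes at these positions held 502 receptor genes, of which 270 are listed as protein coding and 231 as pseudogenes. The runs may reach past the limits of the regions. The largest were those of 11q11-q12 (106 receptor genes, 56 of them of family 5, 22 of family 4 and 18 of family 8) and 11p15 (102, with 49 of family 52, 44 of family 51 and 9 of family 56, the receptors called class I or fish-like). The run of 1q44 held 56 receptor genes (43 of family 2), that of 11q24 held 44 (26 of family 8), that of 14q11 held 30 (21 of family 4) and that of 12q13 held 28 (20 of family 6). The smaller runs were those of 11p11 (21, all of family 4), 7q35 (20, 19 of family 2), 9q33 (15, 14 of family 1) and 9q31 (12, all of family 13). Both runs on the short arm of chromosome 19 were mostly of family 7, with 14 of 16 genes at 19p13.2 and 12 of 14 at 19p13.1. Several runs also held other genes. The 11p15 run encloses the 7 genes of the beta-globin locus, with 53 receptor genes before and 49 after them. The 11q12.1 region spans 2 runs, of 26 and 12 receptor genes, with 30 other genes (12 protein coding) between them.

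DamID reads begin at GATC sites, so upstream sequences of receptor genes from clusters whose bins were all called in contact more often than expected (11q24 and 11q11-q12) and all less often (12q13 and 19p13.2) are shown with each GATC in capitals. Each is the 250 bases before the annotated start of the first protein-coding receptor gene of its run that has a single listed promoter with a GATC. They come from RefSeq, GRCh38.p14, whose coordinates differ from those of the hg19 bins.
OR4D5 (11q24, chr11:123939367-123939616, plus strand): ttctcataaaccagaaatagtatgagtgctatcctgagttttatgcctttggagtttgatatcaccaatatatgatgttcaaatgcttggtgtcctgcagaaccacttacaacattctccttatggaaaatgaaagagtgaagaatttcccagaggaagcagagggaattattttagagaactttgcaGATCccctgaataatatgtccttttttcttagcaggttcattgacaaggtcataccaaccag
OR4C15 (11q11-q12, chr11:55554219-55554468, plus strand): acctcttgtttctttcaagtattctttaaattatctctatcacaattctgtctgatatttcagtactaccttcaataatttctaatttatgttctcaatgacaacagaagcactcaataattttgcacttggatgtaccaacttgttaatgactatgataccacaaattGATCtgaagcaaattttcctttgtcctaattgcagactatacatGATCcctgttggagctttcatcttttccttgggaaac
OR9K2 (12q13, chr12:55126156-55126405, plus strand): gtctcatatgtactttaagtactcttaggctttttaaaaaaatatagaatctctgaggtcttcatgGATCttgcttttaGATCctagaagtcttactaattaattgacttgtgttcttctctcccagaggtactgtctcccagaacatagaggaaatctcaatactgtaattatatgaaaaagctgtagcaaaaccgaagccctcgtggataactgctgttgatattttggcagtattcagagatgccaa
OR7G2 (19p13.2, chr19:9107476-9107725, minus strand): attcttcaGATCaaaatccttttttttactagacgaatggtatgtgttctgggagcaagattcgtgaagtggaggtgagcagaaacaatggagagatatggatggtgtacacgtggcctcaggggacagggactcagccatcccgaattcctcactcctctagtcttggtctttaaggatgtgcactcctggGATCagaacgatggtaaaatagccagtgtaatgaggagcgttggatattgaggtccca
GATC reads the same on both strands. Of these 4 sequences, chosen to hold the site, that of OR4D5 held 1 site and those of OR4C15, OR9K2 and OR7G2 held 2 each. Among all 227 listed promoters of receptor genes in the runs, 93 (41.0%) held a GATC in these 250 bases, and among all 35116 listed promoters it was 35.8%. Their G and C content was 37.1% ± 7.01 (SD over 227 promoters), against 57.2% ± 13.7 over all promoters. By cluster it was 9 of 16 listed promoters at 11q24, 13 of 43 at 11q11-q12, 6 of 15 at 12q13 and 5 of 6 at 19p13.2. A site count in 250 bases says nothing about the 100-kb bin around it.

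The values were ratios of observed to expected reads (OE) per bin and cell. An OE of 1 or more in a cell was counted as a contact. Contact frequency is given per bin, as the percentage of the 32 cells with a contact there. The contact share of a cluster is the percentage of its bins in contact in a cell. Cells had 985 to 258227 recovered reads with a median of 120164, and 3 of them (cells 13, 15 and 17) had 1755 or fewer, so that in these 1 read already gave a median OE of 13.7 to 24.9. The 29 deeper cells had at least 40279 reads. Values of the copies of a chromosome, and of different moments within the 15 h, cannot be told apart.

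The receptor clusters as a whole were in contact more often than the average bin, but they were divided. The contact share of the 107 bins was 2.80% in the lowest cell, 44.4% in the median cell and 63.6% in the highest, with a mean of 39.8% ± 16.8 (SD, n = 32). All used bins had a mean of 26.3% ± 8.08. Without the 3 shallow cells the shares were 43.5% ± 12.8 and 28.6% ± 3.99 (SD, n = 29). The receptor bins exceeded the other bins by 13.6 percentage points ± 12.2 (SD), in 28 of 32 cells. Their median contact frequency was 46.9%, against 6.25% over all used bins, and the mean OE was 1.39 ± 0.497 against 0.936 ± 0.0244 (SD, n = 32).

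An exact two-sided Poisson-binomial test per bin, with Benjamini-Hochberg adjustment over all 26584 bins and a threshold of 0.05, compared the number of cells in contact with that expected from the contact shares of the cells, 8.42 cells. It called 56 of the 107 receptor bins (52.3%) in contact more often, where percent called over all bins was 30.3, and 30 (28.0%) less often, where it was 54.5. The other 21 (19.6%) were not called. Bins called more often were in contact in at least 15 cells and bins called less often in at most 3. In the 29 deeper cells the counts were 57 and 30, against 31.3% and 54.6% of all bins. Contact in at least 80% of the cells was rarer among receptor bins, 4 of 107 (3.74%), than over all bins (8.43%). Contact in at least 50% of the cells was reached by 53 (49.5%), against 29% of all bins. No contact in any cell was found for 18 (16.8%), against 42% of all bins.

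**Figure D1:**
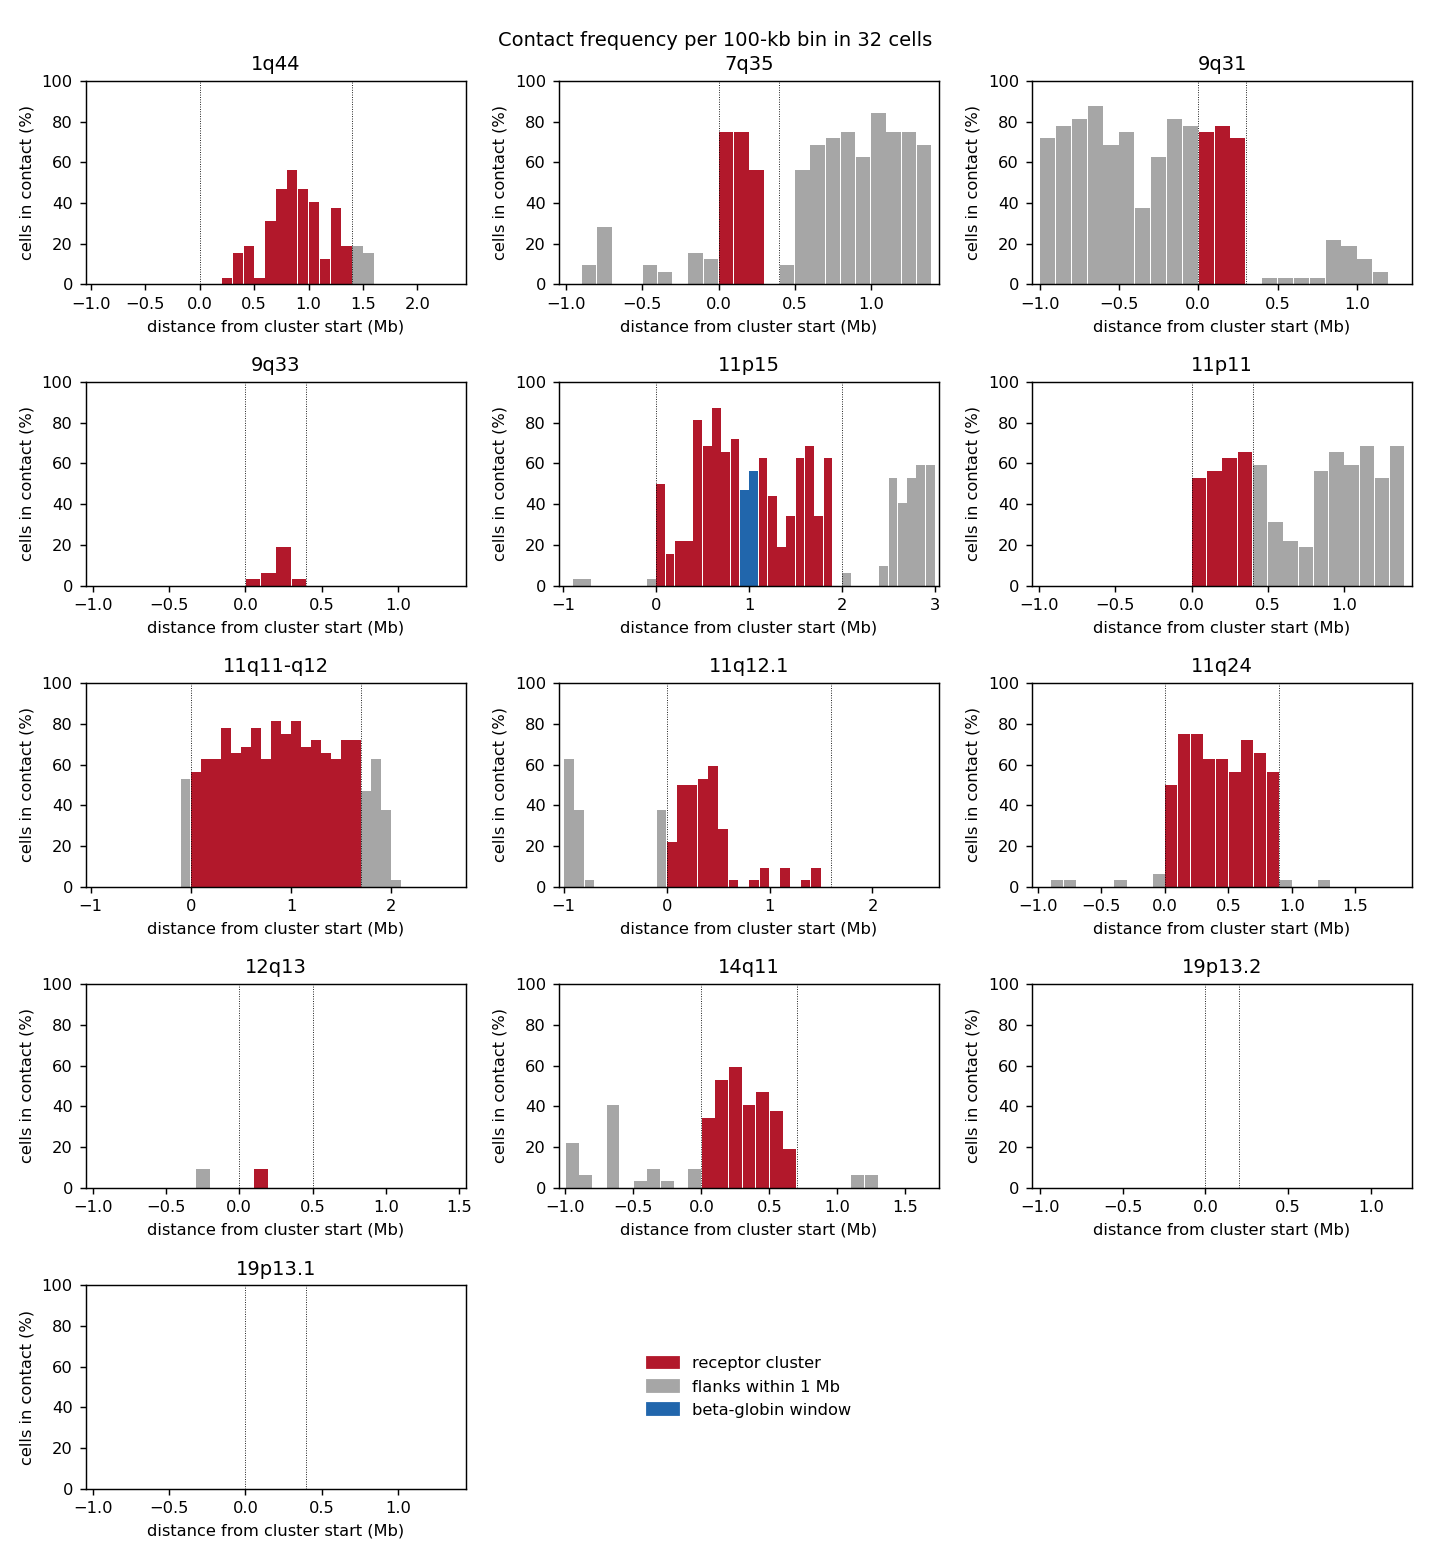
Contact frequency of each 100-kb bin (percentage of the 32 cells with an OE of 1 or more) in the 13 receptor clusters (red), in the bins within 1 Mb on either side (grey) and in the beta-globin window inside 11p15 (blue), against distance from the start of the cluster in Mb. Dotted lines mark the limits of each cluster, and a bin without a bar was in contact in no cell or had no values; 11q24 stands out from both sides, whereas 9q31 continues to the left, 7q35 to the right and both clusters of chromosome 19 are empty.

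The clusters fell into an order from 75.0% of their bins in contact to 0%. The mean contact share was 75.0% ± 37.9 (SD, n = 32) for 9q31, 69.7% ± 35.7 for 11q11-q12, 63.9% ± 36.3 for 11q24 and 59.4% ± 40.0 for 11p11. It was 51.6% ± 22.8 for 7q35 (68.8% without its last bin, which held no read in any cell), 48.4% ± 28.1 for 11p15, 41.5% ± 38.5 for 14q11 and 23.7% ± 23.3 for 1q44. The low end was formed by 11q12.1 (18.8% ± 16.3), 9q33 (7.81% ± 18.4), 12q13 (1.88% ± 5.92) and both clusters of chromosome 19 (0% in every cell). The order and the tests of pairs count the empty bin of 7q35 as out of contact. At 68.8% this cluster would stand between 11q11-q12 and 11q24. In the 12 pairs of clusters next to each other in the order given, 2 differed within cells (sign-flip permutation tests with 100000 resamples, adjusted over all 78 pairs). These were 14q11 above 1q44 by 17.9 percentage points (adjusted p = 0.0343) and 11q12.1 above 9q33 by 10.9 points (adjusted p = 0.0074). Over all pairs 61 of 78 differed, and the 17 that did not were the other 10 neighbours and 7 pairs further apart, with differences of 1.88 (12q13 and 19p13.1) to 15.6 points (9q31 and 11p11, adjusted p = 0.0614).

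Each cluster was then compared with the bins within 1 Mb on either side in the same cell. By two-sided sign-flip permutation tests adjusted over 13 clusters, 10 clusters were above their flanks, none below, and 3 (12q13 and both of chromosome 19) did not pass. Without the 3 shallow cells the counts were the same. The smallest adjusted p, 1.86e-05, comes from the smallest p that the resamples can give, 1e-05. Against all other bins of the same chromosome that lie in no receptor cluster, 7 clusters were above, 5 below and 1 did not pass. Both clusters of chromosome 19 are among the 5 below, and at 0% in every cell they could not lie above. These comparisons share bins for clusters of the same chromosome, and the flanks of 11q11-q12 and 11q12.1 share most of the bins between these clusters.

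**Figure D2:**
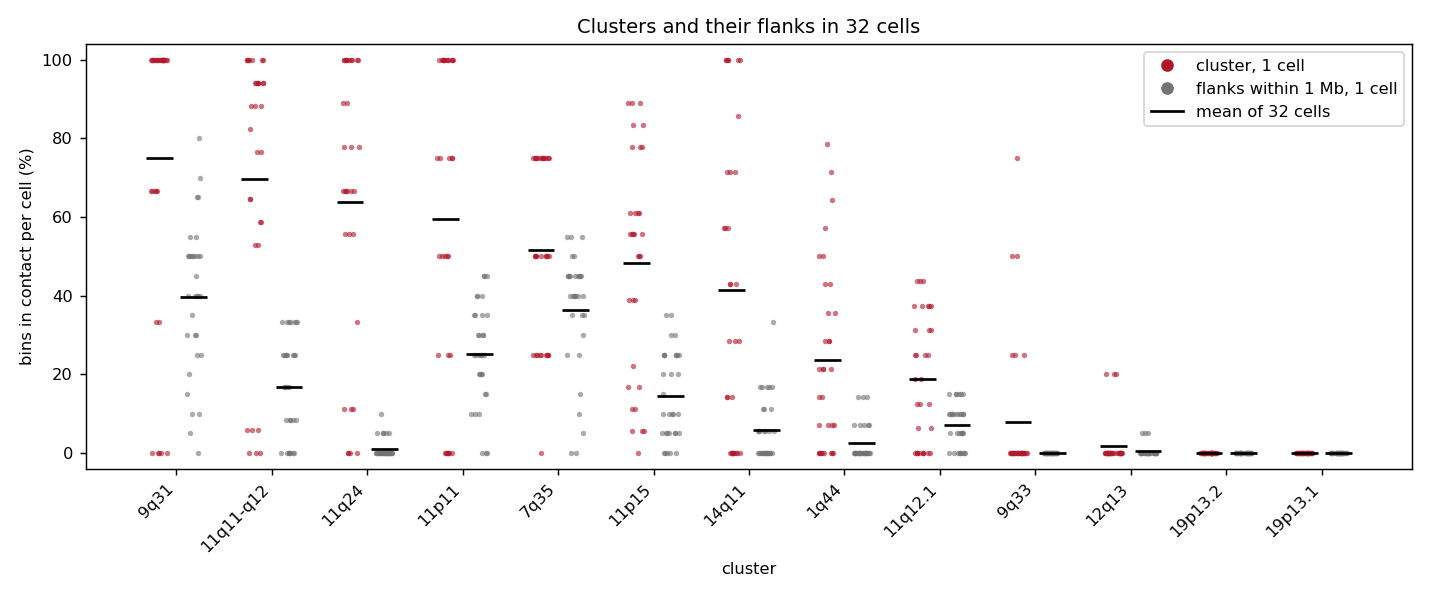
Percentage of bins in contact per cell for each cluster (red points) and for its flanks within 1 Mb (grey points), with the mean of 32 cells as a black line; points are shifted sideways at random for legibility. At 11q24 the mean was 63.9% against 1.09% in the flanks, at 7q35 it was 51.6% against 36.4%, and at both clusters of chromosome 19 all points lie at 0.

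The 11q24 cluster was a sharply bounded island of contact. Its run of receptor genes of families 8, 10, 6 and 4 lies between ZNF202, a zinc finger gene, and PANX3, a pannexin gene. Along its 9 bins (chromosome 11, 123600001 to 124500000) 16, 24, 24, 20, 20, 18, 23, 21 and 18 of 32 cells were in contact, and all 9 were called more often. The adjoining bin outside was in contact in 2 cells on the left and 1 on the right. Contact thus changed from 50.0% to 6.25% of the cells and from 56.2% to 3.12% from 1 bin to the next. Per cell the share was 0% in the lowest cell, 66.7% in the median and 100% in the highest, and 1.09% ± 2.45 (SD) in the flanks. The cluster exceeded its flanks by 62.8 points, with 28 cells higher and 1 lower (sign-flip permutation test, adjusted p = 1.86e-05), and the rest of the chromosome by 35.7 points. All 9 bins were in contact in 10 cells, some in 18 and none in 4, of which 2 were shallow.

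The 11q11-q12 cluster, the largest run, was covered over its whole length. All 17 bins (54900001 to 56600000) were called more often, in 18 to 26 cells each. Its share was 0% in the lowest cell, 88.2% in the median and 100% in the highest. It exceeded its flanks (16.9%) by 52.7 points, with 29 cells higher and 1 lower (sign-flip permutation test, adjusted p = 1.86e-05), and the rest of the chromosome by 41.5 points. The left flank, towards the centromere, held only 2 bins with values, of which 1 held no read in any cell, so this comparison rests mainly on the right side. Against the other bin of the left flank (53.1%) the difference was 16.5 points and did not pass (adjusted p = 0.0513). On the right side, contact was lost over a few bins, with 15, 20, 12, 1 and 0 cells in the first 5 bins of the flank. Adjoining bins were often in contact in the same cell, with a mean longest run of 9.94 of the 17 bins.

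At 11p15 contact was not even, and the cluster had its highest and lowest bins within 2 Mb. The counts over the bins from 4300001 were 16, 5, 7, 7, 26, 22, 28, 21 and 23 cells before the beta-globin window, and 20, 14, 6, 11, 20, 22, 11, 20 and 0 after it. Read support was low in the first of these bins, with 59 expected reads against a median of 314 over all bins. There, all 16 cells with a read counted as in contact. Over all 32 cells, the bin at 4900001 to 5000000, in contact in 28 cells (87.5%), was the most frequent of all 107 receptor bins, with a mean OE of 4.23. That count and mean include the 3 shallow cells, where 1 read gives a contact. In the 29 deeper cells it was in contact in 25, and the bin of 11q11-q12 at 55700001 to 55800000 in 26. The last bin of 11p15, from 6200001, was in contact in no cell, which allows a frequency of up to about 9.38% (3 of 32 cells, the shallow ones included). It held 67 reads in 16 cells, with a highest OE of 0.979, so this result depends on the limit of a contact. In all, 10 of 18 bins were called more often and 1 less often. The share was 0% in the lowest cell, 55.6% in the median and 88.9% in the highest, no cell had all 18 bins in contact and 1 had none. The cluster exceeded its flanks (14.5%) by 33.9 points, with 30 cells higher and 1 lower (adjusted p = 1.86e-05 by the same test), with 0.938% on the left and 28.1% on the right, where contact returned beyond 0.5 Mb (17, 13, 17, 19 and 19 cells in the last 5 bins of the right flank).

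The beta-globin window inside 11p15 was not separated from the receptor bins around it. Its 2 bins (5200001 to 5400000) were set apart by position as the window around the globin genes, which are expressed in the erythroid lineage. With no hg19 annotation at hand, genes were not placed on these bins, and the window may hold receptor genes too. The 2 bins were in contact in 15 and 18 cells, both called more often. The window's share was 51.6% ± 44.9 (SD, n = 32), and the receptor bins minus the window came to -3.12 points ± 26.5 (SD), with 15 cells higher and 15 lower (two-sided sign-flip permutation test, p = 0.533). In the 29 deeper cells it was -4.60 points (p = 0.394). The call depended on the limit of a contact. With an OE of 0.5 the receptor bins were below the window by -15.3 points (adjusted p = 0.00098), and with any read they were below it by -9.72 points (adjusted p = 0.00652). The window had at least 1 bin in contact in 20 cells, and in all 20 a receptor bin next to it was in contact too. In 5 cells only an adjoining receptor bin was in contact, and in 7 cells neither was. The adjoining receptor bins were in contact in 23 cells before the window and 20 after it, more than either bin of the window. The test above covers all receptor bins of the cluster, distant ones included, and the window was not tested against its neighbours alone.

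The 9q31, 11p11 and 7q35 clusters lay at the border of larger contact regions. At 9q31 (107200001 to 107500000 on the chromosome the table names 9:22, KBM7 carrying a translocation between chromosomes 9 and 22), the 3 bins were in contact in 24, 25 and 23 cells. The left flank had a share of 72.2%, 2.81 points below the cluster (adjusted p = 0.551 over 26 comparisons with single sides), and the right flank 7.19%, beginning with a bin in contact in no cell. All 3 bins were in contact in 20 cells, some in 7 and none in 5.

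At 11p11 (48200001 to 48600000), a run of family 4 genes, the 4 bins were in contact in 17, 18, 20 and 21 cells and all were called more often. No bin of the left flank was in contact in any cell, and the right flank, towards the centromere, had a share of 50.3%, 9.06 points below the cluster (sign-flip permutation test, adjusted p = 0.11). Read support was low here: the expected reads of the 4 bins, in the table's own units, were 287, 207, 38 and 71, against a median of 314 over all bins. The 10% of bins with the fewest expected reads included 3 of the cluster and all 10 of the right flank. Without them only 1 cluster bin and the left flank are left, so the comparison with both flanks (34.2 points, adjusted p = 1.86e-05) cannot be repeated.

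At 7q35 (143600001 to 144000000), a run mostly of family 2 genes, the first 3 bins were in contact in 24, 24 and 18 cells, and the last bin held no read in any cell. A share of 75.0% is therefore the highest a cell could reach. The left flank had a share of 8.12%, 43.4 points below the cluster, and the right flank 64.7%. With the empty bin counted as out of contact, the cluster minus the right flank was -13.1 points (sign-flip permutation test, adjusted p = 0.0104 over 26 comparisons). Without bins that held no read in any cell the direction turned: the cluster had a share of 68.8% and was above the right flank by 4.06 points, with 19 cells higher and 12 lower, which did not pass (adjusted p = 0.55). Against both flanks together the cluster was higher by 15.2 points, in 25 of 32 cells (adjusted p = 0.000621), and without the empty bins by 30.4 points (adjusted p = 3.25e-05). With an OE limit of 2 it was 10.9 points and did not pass (adjusted p = 0.0635).

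The 14q11, 1q44 and 11q12.1 clusters were in contact in part. At 14q11 (20100001 to 20800000), with receptors of families 4 and 11, the 7 bins were in contact in 11, 17, 19, 13, 15, 12 and 6 cells, and 3 were called more often. Cells ranged over the whole scale, with all bins in contact in 6 cells, some in 16 and none in 10, of which 3 were shallow. The cluster exceeded its flanks (5.90%) by 35.6 points, with 22 cells higher and 3 lower (adjusted p = 1.86e-05 by the sign-flip permutation test). The flanks towards the centromere had few expected reads per bin (0 to 25), as had the first bin of the cluster (9). Only 4 of the 7 cluster bins and 1 bin of the left flank were not among the 10% of bins with the fewest expected reads.

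At 1q44 (247500001 to 248900000), a run mostly of family 2 genes near the end of the chromosome, contact was highest in bins 8 to 10. The counts over its 14 bins were 0, 0, 1, 5, 6, 1, 10, 15, 18, 15, 13, 4, 12 and 6 cells, with 3 bins called more often and 4 less often. Its share was 0% in the lowest cell, 21.4% in the median and 78.6% in the highest. It exceeded its flanks (2.46%) by 21.2 points, with 22 cells higher and none lower (adjusted p = 1.86e-05 by the sign-flip permutation test). It was not separated from the rest of chromosome 1 (5.33 points, adjusted p = 0.166). That value passed with an OE limit of 0.5 (9.97 points, adjusted p = 0.019) and with any read (12.3 points, adjusted p = 0.00716), and it was -5.59 points without the bins of few expected reads, which leaves 8 of its 14 bins and none of the 3 called more often.

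The 11q12.1 region split along its length. Its first 6 bins from 57700001 were in contact in 7, 16, 16, 17, 19 and 9 cells, and its other 10 in 0 to 3 cells. The test called 4 bins more often, all in the first stretch, and 10 less often, all in the second. The region holds 2 runs of receptor genes with other genes between them, and with no hg19 annotation at hand the runs were not placed on these bins. Its share was 18.8% ± 16.3 against 7.03% in the flanks, a difference of 11.7 points with 21 cells higher and 5 lower (sign-flip permutation test, adjusted p = 0.00013), and it differed from the rest of chromosome 11 by -9.40 points. The latter did not pass with an OE limit of 0.5 (-5.19 points, adjusted p = 0.116), and with any read it was 2.27 points (adjusted p = 0.529). On the left side alone the difference was 4.69 points and did not pass (adjusted p = 0.0747).

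Both 9q33 and 12q13 were in contact in few cells. At 9q33 (125200001 to 125600000), with receptors of family 1, the 4 bins were in contact in 1, 2, 6 and 1 cells, and 3 were called less often. Contact was seen in 6 cells, of which 3 had at least 50% of the cluster in contact, and its flanks were in contact in none (difference 7.81 points, sign-flip permutation test, adjusted p = 0.0407). With an OE limit of 2 that difference was 3.12 points and did not pass (adjusted p = 0.326), nor did it when the 8 cells with the fewest reads were left out (8.33 points, adjusted p = 0.0821). At 12q13 (55500001 to 56000000), with receptors mostly of family 6, the 5 bins were in contact in 0, 3, 0, 0 and 0 cells, and all 5 were called less often. Its share did not differ detectably from its flanks (1.41 points, with 3 cells higher and 2 lower, adjusted p = 0.296). It was above them with any read (7.50 points, adjusted p = 0.0168) and by mean OE (0.0580, adjusted p = 0.005). The rest of their chromosomes had 21.9% and 22.7% of bins in contact, and 9q33 and 12q13 differed from it by -14.1 and -20.8 points. With any read, the difference of 9q33 was -0.692 points and did not pass (adjusted p = 0.885).

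Both clusters of chromosome 19, with receptors mostly of family 7, were in contact in none of the 32 cells, and neither were their flanks. Each of these bins was in contact in 0 of 32 cells, the shallow ones included, which allows a frequency of up to about 9.38% where a bin held reads. The bin of 19p13.1 from 15000001 and several flank bins held no read in any cell, and for these no limit can be given. The 2 bins of 19p13.2 (9200001 to 9400000) held 31 reads over all cells with a mean OE of 0.0747 ± 0.166 (SD, n = 32), and the 4 bins of 19p13.1 (14800001 to 15200000) held 5 reads with a mean OE of 0.00581 ± 0.0163. In the rest of chromosome 19 a share of 2.31% ± 1.99 was in contact, and both clusters differed from it by -2.31 points. With both at 0% in every cell, no other direction was possible. Without the bins of few expected reads the difference was -0.452 points for both (sign-flip permutation test, adjusted p = 0.000693). With any read, 19p13.2 was above the rest of the chromosome by 10.7 points, which did not pass (adjusted p = 0.095). By mean OE, 19p13.2 differed from the rest by -0.0212, which did not pass (adjusted p = 0.532), and 19p13.1 by -0.0901 (adjusted p = 2.17e-05). Mean OE separated both clusters from their flanks in opposite directions. It was higher by 0.0507 at 19p13.2 (sign-flip permutation test, adjusted p = 0.00948) and lower at 19p13.1, with a difference of -0.0118 (adjusted p = 0.0123), both far under the limit of a contact.

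The clusters in contact varied in number from cell to cell. In each of the 29 deeper cells, 2 to 9 of the 13 clusters had at least 50% of their bins in contact, with a median of 6, and in the shallow cells at most 1. The same level was reached by 11q11-q12 in 26 of 32 cells, by 9q31 in 25, by 11q24 in 24, by 7q35 and 11p11 in 22 each, by 11p15 in 20, by 14q11 in 13, by 1q44 in 6 and by 11q12.1 in none. Of the 29 deeper cells, 23 had this level in both 9q31 and 11q11-q12, and 21 in each of the pairs of 11q24 with 9q31, 11q24 with 11q11-q12 and 11p11 with 11q11-q12. Each of these clusters alone reached the level in most cells, so these counts do not show that they were in contact together. Pearson's r between their shares was 0.0615, 0.268, -0.00486 and 0.366, in the order of these pairs.

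**Figure D3:**
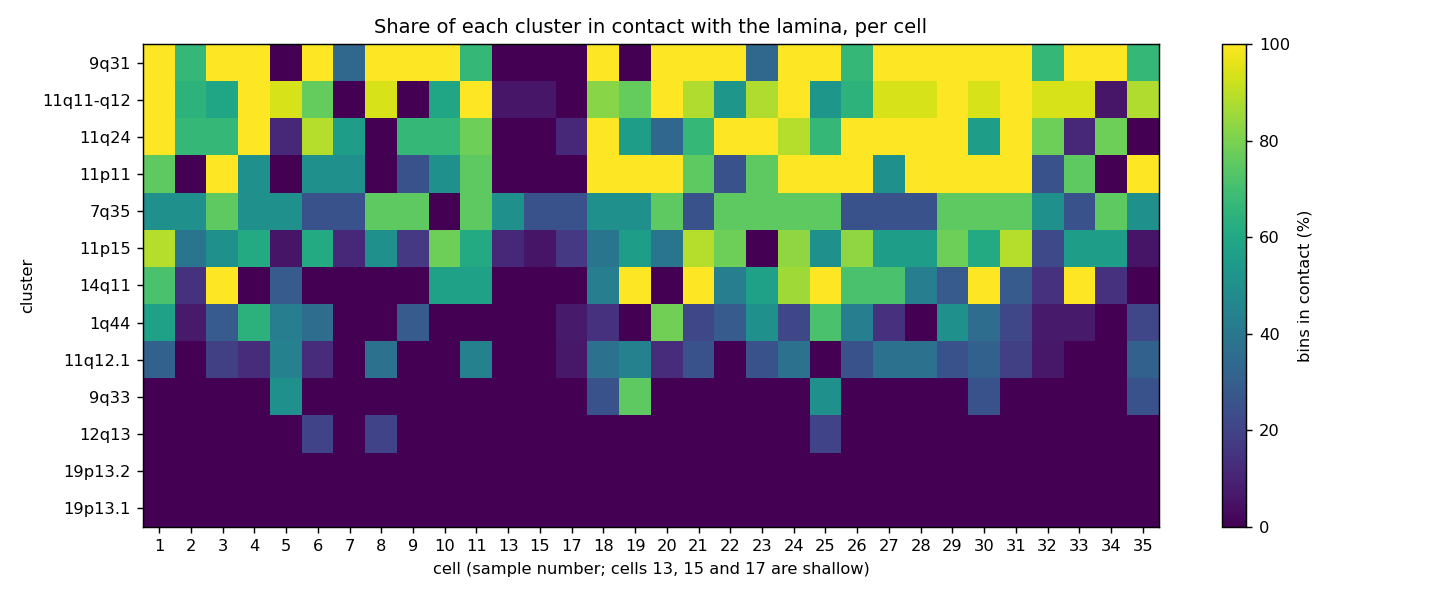
Percentage of the bins of each cluster (rows, ordered by mean contact share) in contact in each cell (columns, named by sample number), on a colour scale from 0 to 100%. The shallow cells 13, 15 and 17 are dark in nearly every row except 7q35, and the deeper cells differ in which of the upper 8 clusters are at the top of the scale.

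Over the 29 deeper cells, the shares of 10 clusters were correlated pairwise. They were taken by their mean share in these cells, which was 8.62% or more in those kept and 2.07% or less in the others. The correlations are descriptions, given with no p, since the points share each cell's depth and total contact. Pearson's r was -0.552 to 0.609 for the 11 pairs on the same chromosome, with a median of 0.258, and -0.324 to 0.542 for the 34 pairs on different chromosomes, with a median of 0.0854. The highest was that of 11q11-q12 with its neighbour 11q12.1 (r = 0.609, Spearman's rho 0.527, and r = 0.544 without the 2 cells farthest from the median of 11q11-q12). The lowest, 9q31 with 9q33, was r = -0.552 with rho -0.304, and without the 2 farthest cells it was 0.0855, so it rests on those cells. The share of a cluster correlated with that of the rest of its chromosome by 0.0296 (9q33) to 0.702 (11p15), with 0.647 for 14q11 and 0.508 for 11q24. With log10 of the reads of the cell it correlated by -0.203 to 0.352.

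**Figure D4:**
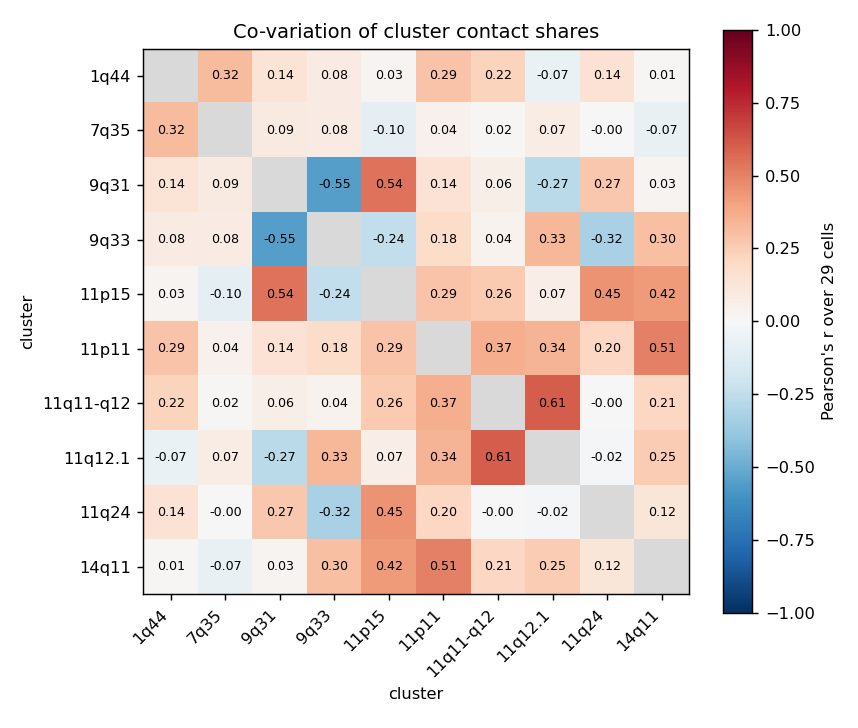
Pearson's r over the 29 deeper cells between the contact shares of each pair of 10 receptor clusters, on a colour scale from -1 (blue) to 1 (red), with the value in each field and the diagonal in grey. The highest value is that of 11q11-q12 with 11q12.1 (0.609) and the lowest that of 9q31 with 9q33 (-0.552).

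The receptor bins included more bins of low read support than the table as a whole. Their median number of expected reads was 287 against 314. With bins that hold no read set aside, 19 of the 107 were among the 10% of bins with the fewest expected reads (under 222), of which 6 lay at 1q44 and 3 each at 11p11, 11q11-q12 and 14q11. A further 2, at 7q35 and 19p13.1, held no read in any cell. The 107 bins held 22705 reads over all cells. Without the 19 bins, 88 receptor bins were left, the 2 without reads among them, of which 45 were called more often and 27 less often, and the contact share was 39.7%. Without the bins that held no read, 56 were called more often and 28 less often, and the share was 40.6%. Percent called over all bins was not computed for either setting. These counts therefore cannot be read against the 30.3 and 54.5 percent called over all bins of the main test.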

How the data were processed

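Per the file headers, the authors deposited a table of ratios of observed to expected reads (OE) per 100-kb bin and cell. Per the submitters' processing notes the tools included cutadapt and Bowtie2 2.1.0, with build hg19. The making of the expectation and any removal of duplicates were not given in the sources used here. Columns were matched to samples by the number in the title. Whole reads and expected reads per bin were recovered from the steps of the values (100% whole within 0.01 reads, which follows from the method); the expected reads of a bin are too small where its reads share a factor. PCR reads are not independent molecules. Flanks were bins with values within 1 Mb, without other clusters and the beta-globin window. Tests were run with Python 3.11.15, numpy 2.4.6 and scipy 1.17.1 and tested on simulated data. All clusters were named, with the highest and lowest bins and the pairs next in order or with the highest and lowest correlation; other bins that are described were picked with their values in view. The members, lists and tests were chosen with earlier results of these data known. Alternatives were other OE limits (0.5, 2, any read), cells (without 3 or 8), expected reads, flanks (0.5 and 2 Mb), trimmed clusters and mean OE, and, chosen after seeing the data, leaving out bins with no read in any cell. Receptor genes came from RefSeq GRCh38.p14.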

Additional observations from a re-analysis of the deposited data

How the results depend on the processing

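Of the 77 recomputed main results, 70 neither reversed nor crossed the threshold, or stayed within 1.5 times (counts) or 1 SD (shares). The number of clusters above their flanks was 8 to 12. With an OE limit of 0.5, the receptor bins of 11p15 minus the beta-globin window passed (-15.3 points), 3 clusters in place of 5 were below the rest of their chromosome, and 19p13.2 turned to 0.451 points (adjusted p = 0.954) against its chromosome. With any read, the window difference passed (-9.72 points), the contact share of the receptor bins was 60.6% and 15 of them were called less often. The share and percent called over all bins were not computed for this setting, so these 2 values do not show a change particular to the receptor bins. With any read, 2 clusters were below their chromosome, and 11q12.1 and 19p13.2 turned to 2.27 and 10.7 points against it, neither passing. Under this setting 12q13 and 19p13.2 were above their flanks (7.50 and 13.6 points, adjusted p = 0.0168 and 0.0112). Mean OE placed 1 cluster, 19p13.1, below its flanks. Without bins of few expected reads, 1q44 turned to -5.59 points against its chromosome (adjusted p = 0.1). The causes were not tested. Of the 260 recomputed values of single clusters, 241 kept direction and call, 7 newly passed, 8 no longer passed and 4 reversed. Those that no longer passed included, against their chromosome, 11q12.1 without the 8 sparsest cells (-6.85 points, adjusted p = 0.0583) and 9q33 with its outer bins left out (-9.44 points, adjusted p = 0.0732). Depth limits the shallow cells most: there, a bin without a read may be in contact and missed.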

Other observations

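The 3 further groups of receptor genes, placed from textbook positions after the values above were seen, are given as values only. Receptors near 1q23 (chromosome 1, 158300001 to 158900000, hg19) had a contact share of 27.1% ± 32.7 (SD, n = 32), with 3 to 11 cells in contact per bin. Receptors near 6p22 (chromosome 6, 29000001 to 29600000), beside the major histocompatibility complex, had 11.5% ± 22.6, with 0 to 6 cells per bin. Receptors near 17p13 (chromosome 17, 2900001 to 3400000) had 0.625% ± 3.54, and contact was seen in 1 of 32 cells.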
